A study of Mus musculus with 7 samples.

Results

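Neuropilins and plexins are the cell surface receptors of the class 3 semaphorins. Their transcripts were followed here across the cell types of the whole embryonic mouse nose. The set holds 7 genes, the neuropilins Nrp1 and Nrp2, the class A plexins Plxna1, Plxna2, Plxna3 and Plxna4, and the class D plexin Plxnd1, taken by name from the 30349 genes that all libraries list.

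A class 3 semaphorin is a secreted guidance cue. Most of them bind a neuropilin, which has a short intracellular tail and passes the signal on through a partner plexin. Sema3a is the classic ligand of Nrp1 and Sema3f of Nrp2, while Sema3e can bind Plxnd1 directly. Both neuropilins are also co-receptors for vascular endothelial growth factors. In the nose these receptors are known for sorting olfactory axons on their way to the bulb and for guiding the axons along which gonadotropin-releasing hormone (GnRH) neurons leave the nose.

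The data are droplet single-cell RNA libraries of 3′ transcript ends from noses at embryonic day 14.5, labelled as 5 wild-type (WT) libraries of strain CD1 IGS and 2 libraries of 1 ProKR2iCre/R26tdTomato nose. In the latter animal the allele Prokr2em1(cre)Cfe, on B6;SJL, makes Cre recombinase from the Prokr2 locus. Cre turns on the red reporter of the second allele, Gt(ROSA)26Sortm14(CAG-tdTomato)Hze, which then stays on in the descendants of a cell. Fluorescence sorting split that suspension into a sorted and an unsorted data set, and the labels do not say which library is which, so they are called ProKR2iCre library 1 and ProKR2iCre library 2. The deposited files' names mark library 1 as unsorted and library 2 as sorted, which was neither used for grouping nor checked. All noses were dissociated with papain and collagenase and frozen before loading. The protocol counts 5 WT noses but ties none to a library, so p-values measure the spread between captures, which may be partly technical.

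WT replicates 3 and 4 shared 7386 cell barcodes, against at most 34 for any other pair of libraries, so replicate 3 was left out and 4 WT captures were used. Barcodes with under 500 genes or over 10% mitochondrial UMIs (unique molecular identifiers, 1 per captured transcript) were dropped, leaving 31465 cells, from 1111 to 10496 per library, with median depths of 5084.5 to 13614 UMIs. Cells were assigned to 17 classes by 3 or more marker genes, none of them a neuropilin or plexin, and class names end in "-like" for that reason. In 15 classes every marker held back from the gate was at least 1.5-fold above the other classes. The exceptions were the sustentacular-like class (3 of 4) and the other neuron-like class (1 of 5), a mixture of neurons outside the olfactory gate led by Vip, Atoh7 and Sim1. Levels (CPM) are UMIs of a gene divided by all UMIs of the summed class, scaled to 1000000, always listed for WT captures 1, 2, 4 and 5 in that order, and only classes with 10 or more cells in a capture were used. Because the libraries read transcript ends, levels are compared between classes for 1 gene and not between genes.

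Capture 1 stood apart for Plxna2 and Plxna4. Over all its kept cells Plxna4 was at 4.78 CPM, against 25.4, 35.8 and 36.9 CPM in captures 2, 4 and 5, and Plxna2 was at 10.9 CPM, against 34.4, 38.9 and 46.9 CPM. It is the only WT capture counted with Cell Ranger 6.0.1 (the others used 7.0.0), and the capture and the software version cannot be told apart. Where a call on these genes changes without it, both values are given.

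The neuropilins bind the ligands and are described first. Nrp1 (ENSMUSG00000025810) lies on chromosome 8 at 128358604 to 128503363, plus strand, and Nrp2 (ENSMUSG00000025969) on chromosome 1 at 62703285 to 62818695, plus strand (GRCm38, GENCODE vM21 gene spans). Nrp1 was highest in the vascular classes. Endothelial-like cells had 139.8, 198.7, 451.8 and 387.4 CPM (294 ± 149, SD, n = 4) and pericyte-like cells, the contractile cells around vessels, had 151.2, 98.9, 294.4 and 233.5 CPM (194 ± 86.7, SD, n = 4). These ranges overlap. Glia-like cells followed at 114 ± 68.6 CPM, other neuron-like cells at 103 ± 54.2 CPM, immune-like cells at 93.1 ± 30.7 CPM, immature olfactory neuron-like cells at 86.8 ± 15.0 CPM and mesenchyme-like cells at 85.1 ± 27.0 CPM (SD, n = 4 each). Each neighbour in that order overlapped the next, down to a gap below the mesenchyme-like cells. Under it were erythroid-like cells at 12.4 and 51.0 CPM (captures 1 and 5), and cartilage-like and bone-like cells at 25.9 ± 6.14 and 21.3 ± 12.4 CPM. Erythroid-like cells should lack the gene, and where their UMIs come from was not tested. Simple epithelium-like (13.4 ± 4.01 CPM), olfactory progenitor-like (8.38 ± 4.09 CPM) and basal epithelium-like cells (5.12 ± 4.01 CPM) came last. None of the classes listed under that gap is set apart from the erythroid values. The lowest glia-like value, 45.1 CPM, lay between those as well. The lowest progenitor value was 3.91 CPM, so the erythroid values are not a floor shared by all classes. The highest mean over the classes was 57.5 times the lowest.

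Nrp2 had another order. Bone-like cells led with 206.2, 216.9, 393.6 and 251.1 CPM (267 ± 86.6, SD, n = 4), and endothelial-like cells had 163.5, 268.9, 327.6 and 155.8 CPM (229 ± 83.6, SD, n = 4). Immature olfactory neuron-like cells had 168.2, 152.5, 336.8 and 89.6 CPM (187 ± 106, SD, n = 4), a spread wide enough to overlap both. Cartilage-like cells (144 ± 46.8 CPM) and mesenchyme-like cells (136 ± 26.2 CPM) came next. Glia-like and pericyte-like cells, which were among the higher classes for Nrp1, had 44.9 ± 14.5 and 44.1 ± 28.1 CPM of Nrp2. Erythroid-like cells were at 20.6 and 62.8 CPM (captures 1 and 5). This overlaps the ranges of both classes, so glial and pericyte Nrp2 is not set apart from the erythroid values. At the low end, within or under the erythroid values, were olfactory progenitor-like (26.4 ± 7.80 CPM), basal epithelium-like (20.7 ± 8.78 CPM) and simple epithelium-like cells (10.3 ± 1.56 CPM). With 1 more gate marker the progenitor mean was 14.6 CPM.

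Among the plexins, which carry the signal into the cell, Plxnd1 (ENSMUSG00000030123, chromosome 6, 115954811 to 115995005, minus strand) was nearest to a single-class gene. Endothelial-like cells had 218.7, 298.0, 491.5 and 318.0 CPM (332 ± 115, SD, n = 4). Every one of these lay above the highest pericyte-like value, in a class that had 31.8, 51.5, 76.5 and 23.4 CPM (45.8 ± 23.6). Immune-like cells had 38.2 ± 9.94 CPM and glia-like cells 19.8 ± 9.26 CPM. In immature olfactory neuron-like cells the mean was 4.52 CPM, and it was 1.06 CPM in simple and 0.796 CPM in basal epithelium-like cells.

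Plxna4 (ENSMUSG00000029765, chromosome 6, 32144268 to 32588192, minus strand), a partner of Nrp1 in the response to Sema3a, was highest in glia-like cells. They had 17.5, 137.9, 258.7 and 169.9 CPM (146 ± 99.8, SD, n = 4), with capture 1 far under the other values. Mesenchyme-like cells had 6.1, 35.4, 44.5 and 44.0 CPM and immature olfactory neuron-like cells 23.6, 22, 29.8 and 30.7 CPM. The neurons were the one of these classes in which capture 1 was not low. ProKR2iCre libraries 1 and 2 had 54.4 and 102.2 CPM in glia-like cells, inside the WT range.

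Plxna2 (ENSMUSG00000026640, chromosome 1, 194618218 to 194816869, plus strand), whose protein acts with neuropilins and also binds class 6 semaphorins, was spread over non-neuronal classes. It averaged 55.2 ± 33.2 CPM in basal epithelium-like, 51.7 ± 30.8 in endothelial-like, 45.1 ± 29.6 in glia-like and 36.2 ± 15.3 in mesenchyme-like cells (SD, n = 4 each), with all of these ranges overlapping. Immature olfactory neuron-like cells had 3.1, 7.3, 12.5 and 5.1 CPM, and olfactory progenitor-like cells averaged 6.90 ± 2.74 CPM. Muscle-like cells reached 10 cells in captures 1 and 2 and had 33.2 and 83.3 CPM there.

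Plxna1 (ENSMUSG00000030084, chromosome 6, 89316314 to 89362620, minus strand) had a flatter profile, its highest class mean being 6.04 times its lowest. Other neuron-like cells averaged 27.1 ± 13.4 CPM, basal epithelium-like cells 27.1 ± 5.63 CPM and immature olfactory neuron-like cells 20.6 ± 9.52 CPM, and glia-like cells 6.08 ± 4.32 CPM. With 1 more gate marker, capture 1 alone kept 10 other neuron-like cells or more, and there they had 54.5 CPM of Plxna1 and 43.6 CPM of Plxna2. Plxna3 (ENSMUSG00000031398, chromosome X, 74329066 to 74344689, plus strand), a partner of Nrp2 in the response to Sema3f, ran from 15.4 ± 6.78 CPM in basal epithelium-like cells and 10.6 ± 3.93 CPM in immature olfactory neuron-like cells to 2.29 ± 0.289 CPM in endothelial-like cells, with 0 UMIs in the erythroid-like cells of captures 1 and 5, where 3 counts would be 12.4 and 11.8 CPM. For the other plexins erythroid-like cells in captures 1 and 5 had 4.13 and 7.85 CPM of Plxna1, 0 and 11.8 of Plxna2, 0 and 15.7 of Plxna4 and 4.13 and 7.85 of Plxnd1, on at most 4 UMIs each. Levels in these ranges are not set apart from the erythroid values, whose source was not tested. Plxna3 rests on 2372 UMIs in all kept cells, the fewest of the 7 genes, against 35768 for Nrp2.

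**Figure D1:**
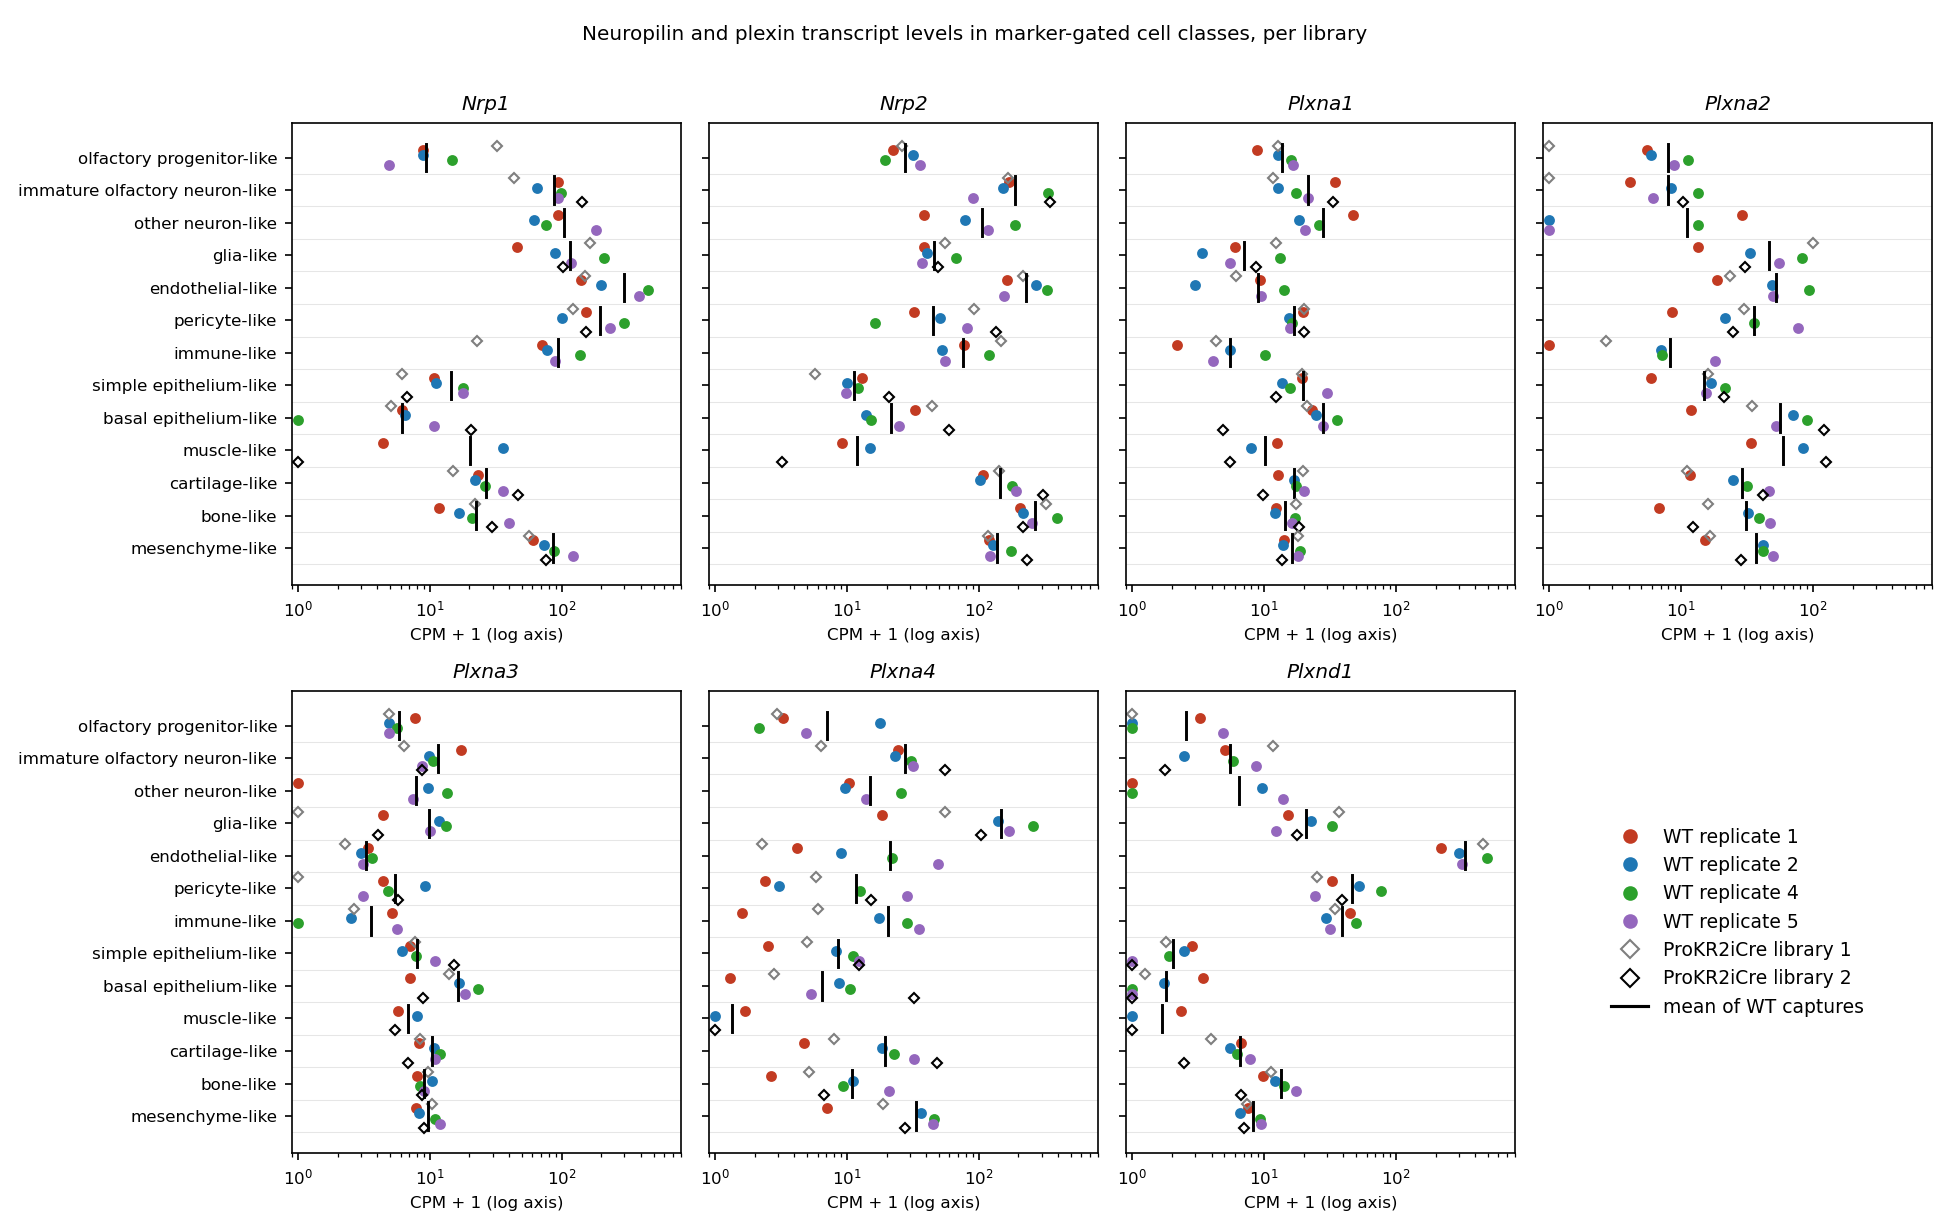
Level of each gene (x axis, CPM plus 1, log axis) in each cell class (y axis); filled circles are the 4 WT captures, open diamonds the ProKR2iCre libraries and black lines the mean of the WT captures. Plxnd1 is set apart in endothelial-like cells (332 CPM against 45.8 in pericyte-like cells), the mean of Plxna4 is highest in glia-like cells with a range that overlaps the mesenchyme-like one, and capture 1 (red) sits low for Plxna4 in most classes.

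Nrp1, Nrp2 and Plxnd1 are the 3 genes called higher in endothelial-like cells than in both pericyte-like and mesenchyme-like cells below, and the sequences before the starts of Nrp2 and Plxnd1 are shown. The RefSeq window of Nrp1 lies inside its GENCODE gene and is not shown. A second, longer span listed for Plxnd1 runs to 115995339 and holds its whole window. The Plxnd1 bases shown thus lie before the RefSeq and GENCODE starts but inside that longer span. The printed windows hold the bases before the RefSeq start that lie outside the GENCODE gene (GRCm38.p6, RefSeq promoter table), with GC boxes (GGGCGG on either strand) in capitals. The Nrp2 window is chr1:62703067-62703284, plus strand, and the Plxnd1 window chr6:115995006-115995255, read on the minus strand.
Nrp2: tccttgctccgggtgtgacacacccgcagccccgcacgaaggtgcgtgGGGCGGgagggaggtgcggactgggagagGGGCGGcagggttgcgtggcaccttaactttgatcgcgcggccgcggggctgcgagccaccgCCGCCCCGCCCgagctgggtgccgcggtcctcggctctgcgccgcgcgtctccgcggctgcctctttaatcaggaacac
Plxnd1: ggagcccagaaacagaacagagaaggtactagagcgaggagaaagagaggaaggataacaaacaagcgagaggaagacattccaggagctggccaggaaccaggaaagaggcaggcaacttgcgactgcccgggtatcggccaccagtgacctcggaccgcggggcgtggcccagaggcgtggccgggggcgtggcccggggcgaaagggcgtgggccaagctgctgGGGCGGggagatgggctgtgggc
The Nrp2 stretch of 218 bases is 72.5% G or C and holds 4 GC boxes, 2 of which overlap. The Plxnd1 stretch of 250 bases is 64.8% G or C and holds 1. A GC box was found in 32.7% of the 32851 windows of 250 bases in the table, whose median GC content was 52.4%. The table had windows for 5 of the 7 genes (not Plxna1 and Plxna4), and the other windows held 1 GC box for Nrp1, 2 for Plxna2 and 1 for Plxna3. None of the 5 held the ETS core CCGGAA (12% of all windows), searched on both strands.

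Classes were compared with edgeR's quasi-likelihood test on the summed counts, with the capture as a block because both classes of a comparison come from the same suspensions. P-values were Benjamini-Hochberg adjusted over 13374 genes, and a gene was called at an adjusted p below 0.05. Of 25 calls among the neuropilins and plexins in 7 comparisons, 13 held under every alternative tried.

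The first comparison follows the olfactory lineage from dividing precursors to young neurons. Of the 7 genes 3 were called, all higher in immature olfactory neuron-like cells than in olfactory progenitor-like cells, where 29.0% of all genes tested were called (16.8% higher). Nrp1 had 93.3, 64.5, 97.2 and 92.2 CPM in the neurons against 7.9, 7.9, 13.8 and 3.9 CPM in the progenitors. The neurons were above the progenitors in each capture and the ranges lay far apart (log2 fold change 3.18, SE 0.393, edgeR adjusted p = 2.21e-08). Nrp2 had 168.2, 152.5, 336.8 and 89.6 CPM against 21.4, 30.6, 18.4 and 35.2 CPM, again with no overlap (log2 fold change 2.88, SE 0.343, edgeR adjusted p = 9.07e-09; 2.27 without capture 4 and 3.78 with 1 more gate marker). Plxna4 had 23.6, 22, 29.8 and 30.7 CPM against 2.3, 16.8, 1.2 and 3.9 CPM, with capture 2 closest (log2 fold change 1.99, SE 0.566, edgeR adjusted p = 0.00579). The call on Plxna4 was lost without capture 4 (edgeR adjusted p = 0.0746) and without the block (0.170), and its log2 fold change was 3.87 without capture 2. The log2 fold changes of Plxna1 (0.77), Plxna3 (1.15), Plxnd1 (2.01) and Plxna2 (0.11) had edgeR adjusted p of 0.0781, 0.0520, 0.128 and 0.943. Plxna1 was called in 4 alternatives, with WT replicate 3 in place of 4 (0.0465), a stricter cell filter (0.0291), 1 more gate marker (0.0348) or doublets removed (0.0377). Plxna3 was called by DESeq2 (0.0482) and with RLE size factors (0.0427), and Plxnd1 with 1 more gate marker (0.0286). Without 1 capture the log2 fold change of Plxna1 ran from 0.14 (without capture 1) to 1.00 and that of Plxnd1 from 1.37 (without capture 4) to 3.05 (without capture 1), and neither was called. The median over the 7 genes was 1.99, against 0.11 over all genes, but only 3 were called. In the other comparisons below that median ran from -0.29 (immature neurons against glia) to 0.81 (endothelial against pericyte).

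The wider semaphorin pathway was read from a list of 54 genes, 50 of which were tested. In the same comparison 20 of them were higher in the neurons and 0 were lower. Among the 7 class 3 semaphorins 3 were higher, including Sema3a, at 225 ± 139 CPM against 68.1 ± 48.7 CPM (SD, n = 4; log2 fold change 1.77, SE 0.297, edgeR adjusted p = 8.25e-06). Crmp1, a collapsin response mediator that acts downstream of Sema3a, was higher too, at 140 ± 22.2 against 28.7 ± 17.8 CPM (log2 fold change 2.53, edgeR adjusted p = 2.11e-06). Of the other plexins Plxnb2 was called, at 75.5 ± 17.2 against 31.3 ± 11.3 CPM. None of the 8 genes for VEGF ligands and receptors was called.

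**Figure D2:**
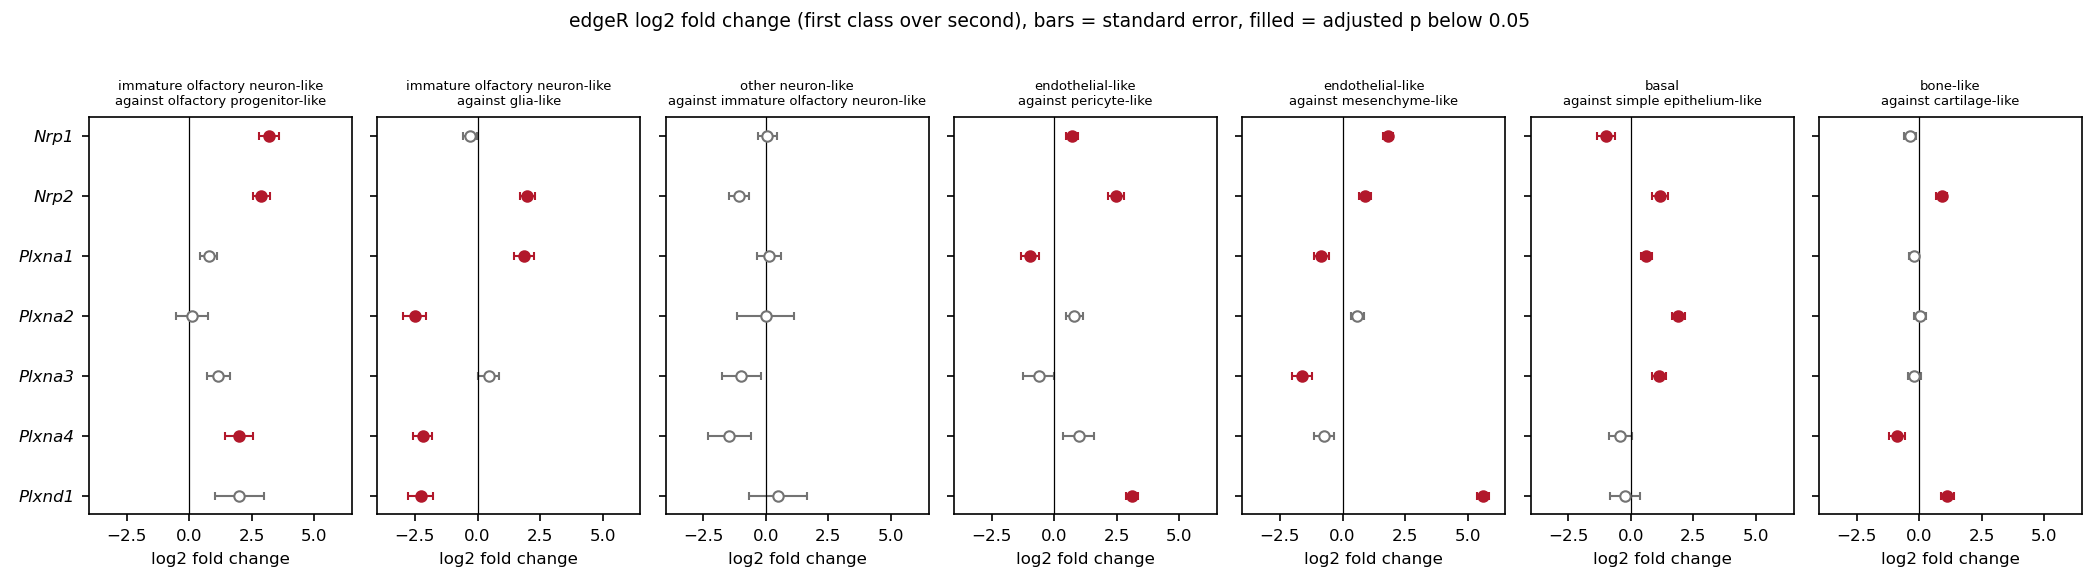
edgeR log2 fold change of each gene (x axis, first class over second) in the 7 comparisons, with standard errors as bars and filled red points for adjusted p below 0.05. Plxnd1 in endothelial-like cells reaches 3.11 and 5.61, and no point is filled for other neuron-like against immature olfactory neuron-like cells.

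Olfactory axons grow out wrapped by glia, and these cell types differed in 5 of the 7 genes, 2 higher and 3 lower in the neurons (43.3% of all genes were called). Nrp2 was higher in immature olfactory neuron-like cells, with 37.2, 39.6, 66.5 and 36.2 CPM in the glia and each neuron value above all of these (log2 fold change 1.99, SE 0.311, edgeR adjusted p = 9.49e-07). Plxna1 had 33.8, 11.7, 16.4 and 20.5 CPM against 5.1, 2.4, 12.3 and 4.5 CPM in the glia. The neuron was higher in every capture, although the lowest neuron value lay under the highest glial one (log2 fold change 1.85, SE 0.388, edgeR adjusted p = 1.17e-04).

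On the glial side were 3 plexins. Plxna4 was lower in the neurons, in 3 of the 4 captures (log2 fold change -2.20, SE 0.367, edgeR adjusted p = 3.29e-06), the exception being capture 1, and the log2 fold change was -2.80 without that capture. Plxna2 had 12.4, 32.4, 81.3 and 54.4 CPM in glia-like cells, above the neurons of the same capture each time (log2 fold change -2.51, SE 0.455, edgeR adjusted p = 1.34e-05). Plxnd1 had 14.1, 21.6, 32.0 and 11.3 CPM in glia-like cells, all above the neurons (log2 fold change -2.27, SE 0.507, edgeR adjusted p = 2.69e-04). These 5 calls held in every alternative, among them the removal of each capture. Nrp1 missed the threshold with all captures (log2 fold change -0.29, edgeR adjusted p = 0.399) and was called lower in the neurons without capture 1 (-0.71, edgeR adjusted p = 0.0378). Plxna3 was not called (0.46, edgeR adjusted p = 0.402).

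Part of the glia-like class carried UMIs of the melanoblast markers Dct, Pmel or Mitf, from 13% to 52.2% of its cells per WT capture, the highest share being in capture 5 (12 of 23 cells). Without those cells 5 of the 7 genes were still called, a count given without the share of all genes called in that setting. In the pathway list 18 genes were higher and 12 lower in the neurons. The class 3 semaphorins split into Sema3a (225 ± 139 against 7.77 ± 5.77 CPM) and Sema3f (17.9 ± 2.92 against 4.55 ± 2.11 CPM) on the neuronal side and 4 genes on the glial side, led by Sema3g and Sema3b (1.63 ± 1.12 in neurons against 24.3 ± 8.30 CPM in glia). The adhesion molecule Chl1, a neuropilin co-receptor, had 6.43 ± 5.99 CPM in neurons and 117 ± 37.8 CPM in glia (log2 fold change -4.70, edgeR adjusted p = 7.88e-12). Dpysl5, an intracellular mediator of the collapsin response family, had 174 ± 67.3 CPM in neurons and 1.81 ± 2.15 CPM in glia.

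Neurons outside the olfactory gate, 11 to 18 cells per capture, were set against immature olfactory neuron-like cells. None of the 7 genes was called by edgeR (13.7% of all genes were, 3.45% higher and 10.2% lower), and 1 had an unadjusted p below 0.05. DESeq2 called 0 as well. That gene was Nrp2, at 105 ± 63.6 CPM against 187 ± 106 CPM (log2 fold change -1.07, SE 0.399, edgeR adjusted p = 0.0661). It passed without the filter on low counts (edgeR adjusted p = 0.0389) and without capture 5 (0.0385). Nrp1 had 93.4, 61.0, 74.8 and 181.5 CPM in these cells, on both sides of the olfactory values. Plxna2, Plxna3 and Plxnd1 had 0 UMIs in at least 1 capture of these cells. Over the pathway list 2 genes were called higher and 4 lower in the other neurons. The higher ones were Vegfb (88.8 ± 54.5 against 29.7 ± 13.1 CPM) and Farp2 (48.5 ± 36.8 against 16.0 ± 10.1 CPM). Dpysl5 and Mical2, both intracellular mediators, were called lower in the other neurons, Dpysl5 at 11.6 ± 5.34 against 174 ± 67.3 CPM.

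In vessels, where Nrp1 and Nrp2 serve VEGF as well as semaphorin signals, 4 of the 7 genes were called between endothelial-like and pericyte-like cells, 3 higher and 1 lower in endothelium (25.3% of all genes were called). Plxnd1 had the largest fold of the 7 (log2 fold change 3.11, SE 0.25, edgeR adjusted p = 1.35e-13), from the values given above. Nrp2 separated the vessel wall's inner and outer cells as well, with 163.5, 268.9, 327.6 and 155.8 CPM against 31.1, 49.4, 15.3 and 80.7 CPM. The ranges did not overlap (log2 fold change 2.48, SE 0.319, edgeR adjusted p = 3.67e-08). Nrp1 was higher in 3 of 4 captures (0.70, SE 0.235, edgeR adjusted p = 0.0232). That call was lost without capture 2 (0.187), without capture 5 (0.138), in DESeq2 (0.0602) and without the block (0.252). Plxna1 was lower, at 7.98 ± 4.59 against 15.8 ± 1.92 CPM (log2 fold change -0.96, SE 0.363, edgeR adjusted p = 0.0444), a call held in 6 of 12 alternatives. It was lost without capture 1 (0.165), 2 (0.248) or 5 (0.0708), without the block (0.141), without the low count filter (0.0950) and with doublets removed (0.0577). Plxna2 was not called (0.81, edgeR adjusted p = 0.0831), but was without capture 5 (0.00832), without the low count filter (0.0421) and with doublets removed (0.0138).

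Of the pathway list 12 genes were higher and 12 lower in endothelial-like than in pericyte-like cells. The VEGF receptors Kdr (439 ± 169 against 1.99 ± 1.56 CPM) and Flt4 (51.0 ± 10.9 CPM against 0 UMIs in every pericyte-like sum) were higher, and the ligand Vegfa was lower, at 6.37 ± 6.42 against 29.0 ± 4.76 CPM. Sema3g was the class 3 semaphorin called, at 18.6 ± 12 against 0.531 ± 1.06 CPM. Sema5a, a membrane semaphorin, was lower in endothelium, at 9.55 ± 7.85 against 195 ± 118 CPM.

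Against mesenchyme-like cells, the largest class, 5 of the 7 genes were called, 3 higher and 2 lower in endothelium (43.3% of all genes were called, 19.4% higher and 23.9% lower). Plxnd1 in mesenchyme-like cells averaged 7.22 ± 1.39 CPM and the endothelial values stood far above it (log2 fold change 5.61, SE 0.224, edgeR adjusted p = 1.48e-24). Nrp1 had 59.5, 72.4, 86.4 and 122.0 CPM in mesenchyme-like cells, under the lowest endothelial value of 139.8 (log2 fold change 1.81, SE 0.217, edgeR adjusted p = 2.16e-09). Plxna3 was lower in endothelium, at 2.4, 2.0, 2.6 and 2.1 CPM against 6.9, 7.3, 9.9 and 10.9 CPM (log2 fold change -1.62, SE 0.412, edgeR adjusted p = 0.00119). The ranges did not overlap, but the endothelial sums rest on 9, 2, 1 and 1 UMIs of this gene.

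Nrp2 was higher by less (0.88, SE 0.240, edgeR adjusted p = 0.00235) and lost its call without capture 2 (0.0788) and without the block (0.0743). Plxna1 was lower (-0.84, SE 0.287, edgeR adjusted p = 0.0152), lost without capture 2 (0.165) and without the block (0.0987). Plxna2 was not called with all captures (0.59, SE 0.259, edgeR adjusted p = 0.0628) and was called higher without capture 1 (0.67, edgeR adjusted p = 0.0440). It also passed without the low count filter (0.0441), under the stricter cell filter (0.0279), with 1 more gate marker (0.0461) and with doublets removed (0.0451). Plxna4 was called lower only when capture 5 was left out (-1.31, edgeR adjusted p = 0.0272). Of the 7 class 3 semaphorins 5 were lower in endothelium, among them Sema3c (3.88 ± 2.39 against 32.3 ± 10.5 CPM) and Sema3e, the Plxnd1 ligand (1.36 ± 1.19 against 13 ± 9.24 CPM). Sema3g was the 1 that was higher. Vegfa was lower as well, at 6.37 ± 6.42 against 37.6 ± 5.74 CPM (log2 fold change -2.21, edgeR adjusted p = 5.67e-08). Kdr (439 ± 169 against 1.69 ± 0.752 CPM) and Flt4 (51.0 ± 10.9 against 0.0997 ± 0.0690 CPM) were higher. Of the 8 VEGF ligands and receptors 3 were higher and 3 lower, and over the list 15 were higher and 20 lower.

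Between basal and simple epithelium-like cells 5 of the 7 genes were called, 4 of them higher in the basal class (21.9% of all genes were called, 9.31% higher). Plxna2 had 11.0, 69.2, 89.0 and 51.8 CPM in basal against 4.9, 15.7, 20.4 and 14.5 CPM in simple epithelium-like cells. The basal class was higher in each capture, with capture 1 lowest in both (log2 fold change 1.89, SE 0.263, edgeR adjusted p = 2.21e-07). Plxna3 averaged 15.4 ± 6.78 against 7.01 ± 2.14 CPM (1.13, SE 0.280, edgeR adjusted p = 0.00204), a call lost without capture 2 (0.117).

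Like the call on Plxna3, the remaining calls moved with the setting. Nrp2 (1.15, SE 0.324, edgeR adjusted p = 0.00692) was lost without capture 1 (0.126) and without the block (0.0670). Its levels were 13 to 31.7 CPM in basal and 8.80 to 11.9 CPM in simple epithelium-like cells. They lay within or under the erythroid values of 20.6 and 62.8 CPM, so the difference is between levels not set apart from those. Plxna1 (0.62, SE 0.212, edgeR adjusted p = 0.0283) was lost without capture 2 (0.288), capture 4 (0.201) and the block (0.400), without the low count filter (0.05001) and with 1 more gate marker (0.122). Nrp1 was lower in the basal class, with 0 UMIs in capture 4, where 3 counts would be 4.77 CPM (-0.99, SE 0.356, edgeR adjusted p = 0.0386), and held in 5 of 12 alternatives. It was lost without capture 2 (0.137), 4 (0.101) or 5 (0.0735), without the block (0.137), with WT replicate 3 in place of 4 (0.0516), with 1 more gate marker (0.0774) and with doublets removed (0.109). Its levels in both classes (at most 9.81 and 17.0 CPM) also lay within or under the erythroid values, 12.4 and 51.0 CPM. In the pathway list 11 genes were higher and 3 lower in the basal class. Sema3d stood at 152 ± 68.6 against 29.0 ± 17.8 CPM (log2 fold change 2.55, edgeR adjusted p = 1.58e-11) and Sema3e at 42 ± 26.4 against 10.9 ± 7.02 CPM.

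In the skeleton of the nose 3 of the 7 genes were called between bone-like and cartilage-like cells, 2 higher and 1 lower in bone (18.5% of all genes were called, 7.73% higher). Nrp2 had 206.2, 216.9, 393.6 and 251.1 CPM in bone-like against 106.8, 102.0, 177.0 and 192.2 CPM in cartilage-like cells. The ranges did not overlap (log2 fold change 0.90, SE 0.228, edgeR adjusted p = 0.00302). The call was lost without capture 2 (0.0724) and without the block (0.163). Plxnd1 had 8.8, 11.1, 13.3 and 16.5 CPM against 5.6, 4.5, 5.3 and 6.9 CPM, also without overlap (1.13, SE 0.248, edgeR adjusted p = 5.30e-04), and missed the threshold without the block (0.0783). Plxna4 was lower in bone, at 10.0 ± 7.53 against 18.6 ± 11.5 CPM (-0.89, SE 0.321, edgeR adjusted p = 0.0447). Both ranges overlapped the erythroid values of Plxna4 (0 and 15.7 CPM), as did the cartilage-like range of Plxnd1 its own (4.13 and 7.85 CPM). The call on Plxna4 held in 4 of 12 alternatives. It was lost without capture 2 (0.112), 4 (0.228) or 5 (0.0835), in DESeq2 (0.175), without the block (0.799), with WT replicate 3 in place of 4 (0.0740), under the stricter cell filter (0.0890) and with doublets removed (0.0611).

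Of the 7 class 3 semaphorins 1 was called higher and 3 lower in bone. Sema3e, at 4.24 ± 3.14 CPM in bone-like against 70.6 ± 46.8 CPM in cartilage-like cells (log2 fold change -3.82, edgeR adjusted p = 2.18e-07), and Sema3c, at 10.1 ± 4.31 against 82.0 ± 29.7 CPM (-2.92, edgeR adjusted p = 1.15e-11), were lower in bone. Sema3b was higher, at 25.5 ± 15.7 against 1.94 ± 1.46 CPM. Over the list 9 genes were higher and 8 lower.

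Mature olfactory neuron-like cells, marked by Omp, reached 10 cells in WT capture 1 (27 cells) and in ProKR2iCre library 2 (72 cells), so their levels are set beside the immature cells of the same library with no test, and intervals cover counting error only. Plxna4 was at 67.6 CPM in mature and 23.6 CPM in immature cells of capture 1 (ratio 2.87, 95% interval 1.56 to 5.29). In ProKR2iCre library 2 it was at 148.1 and 54.4 CPM (2.72, 2.07 to 3.62). Nrp2 ran the opposite way in both, at 86.6 against 168.2 CPM in capture 1 (0.515, 0.341 to 0.755) and 174.9 against 348.2 CPM in library 2 (0.502, 0.429 to 0.587).

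Nrp1 was at 156.9 against 93.3 CPM in capture 1 (ratio 1.68, 1.19 to 2.36) and 171.5 against 140.7 CPM in library 2 (1.22, 1.00 to 1.48). From progenitor to mature cell in capture 1, Nrp1 and Plxna4 were thus higher at each stage and Nrp2 was highest in the middle one. Plxna2 was at 2.74 against 9.33 CPM in library 2 (4 and 12 UMIs, ratio 0.294, 0.0691 to 0.970), and its interval reached across 1 in capture 1. The intervals of Plxna1, Plxna3 and Plxnd1 reached across 1 in both libraries.

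**Figure D3:**
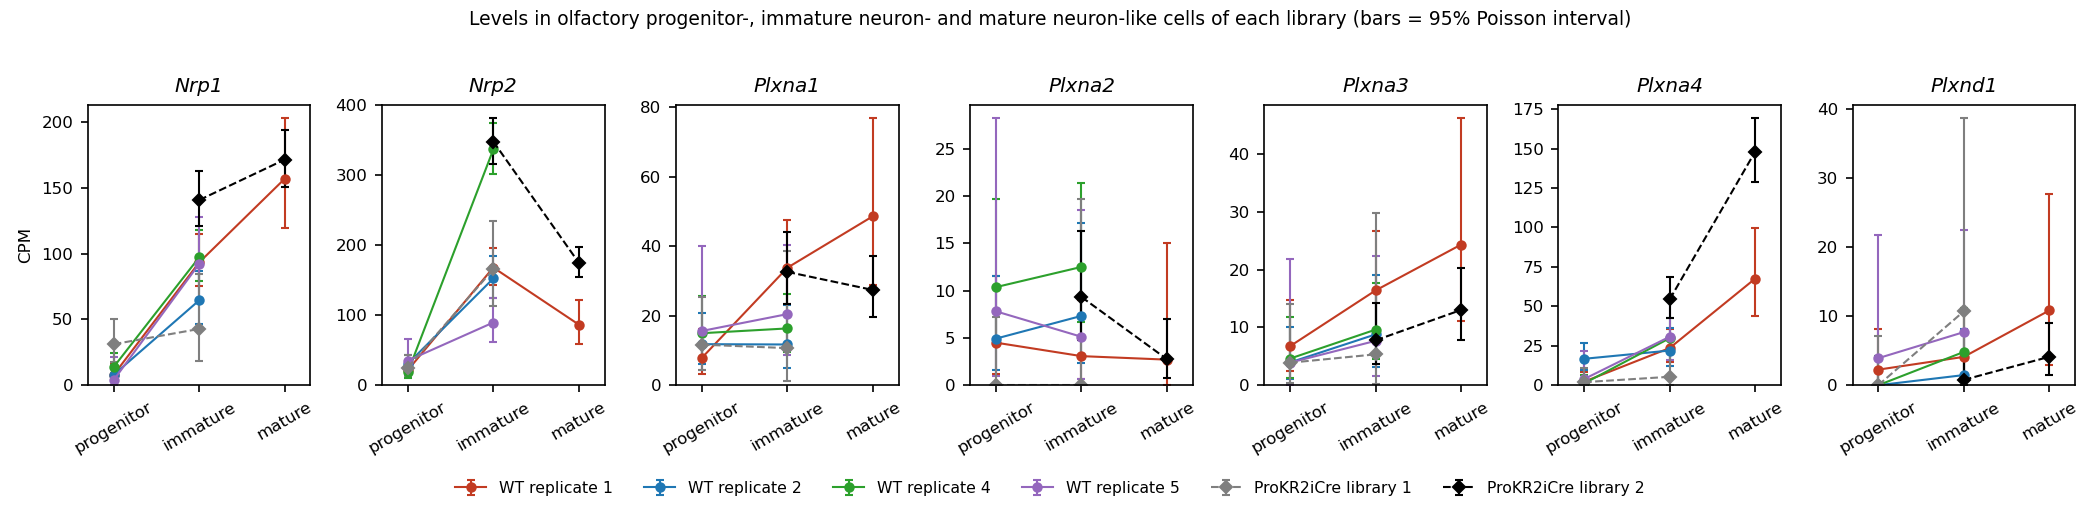
Level of each gene (y axis, CPM) in progenitor-, immature neuron- and mature neuron-like cells (x axis) of each library with 10 or more cells of the class, bars being 95% Poisson intervals. Nrp1 and Nrp2 are low in progenitors in all 4 WT captures, and Plxna4 is higher in mature than immature cells in both libraries that have them (67.6 against 23.6 and 148.1 against 54.4 CPM).

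Nrp2 is known for graded expression along the dorsal to ventral axis of the olfactory epithelium, and olfactory neuron-like cells were split by Nqo1 or Acsm4 (dorsal) against Ncam2 or Nfix (ventral). Captures 1, 2 and 4 had 10 or more cells on each side, 32, 13 and 10 dorsal against 37, 35 and 58 ventral. Nrp2 was at 33.9, 64.8 and 84.4 CPM in dorsal and 189.2, 255.8 and 387.7 CPM in ventral cells. Every dorsal value lay under every ventral one, with a mean difference of -2.20 ± 0.240 (SD, n = 3) on the log2(CPM + 1) scale. Nrp1 was at 89.5, 46.3 and 59.1 CPM in dorsal and 140.3, 120.8 and 166.7 CPM in ventral cells, also without overlap (-1.16 ± 0.454, SD, n = 3).

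For each gene the exact two-sided sign-flip permutation test gave p = 0.25, the smallest that 3 pairs allow. In ProKR2iCre library 2, with 12 dorsal and 101 ventral cells, Nrp2 was at 17.3 against 356.0 CPM (ratio 0.0486, 95% interval 0.0132 to 0.1249) and Nrp1 at 90.8 against 172.4 CPM (0.527, 0.322 to 0.819). ProKR2iCre library 1 had only 4 dorsal and 6 ventral cells. Nrp2 there had 0 and 46 UMIs, and Nrp1 was at 42.4 against 39.3 CPM (2 and 5 UMIs, ratio 1.08, 0.103 to 6.59). Maturity moved with the split. Mature cells made up 50% of dorsal and 13.5% of ventral cells in capture 1, 15.4% and 5.71% in capture 2, 0% and 6.90% in capture 4, and 75% and 40.6% in library 2. Its part in the difference was not tested.

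**Figure D4:**
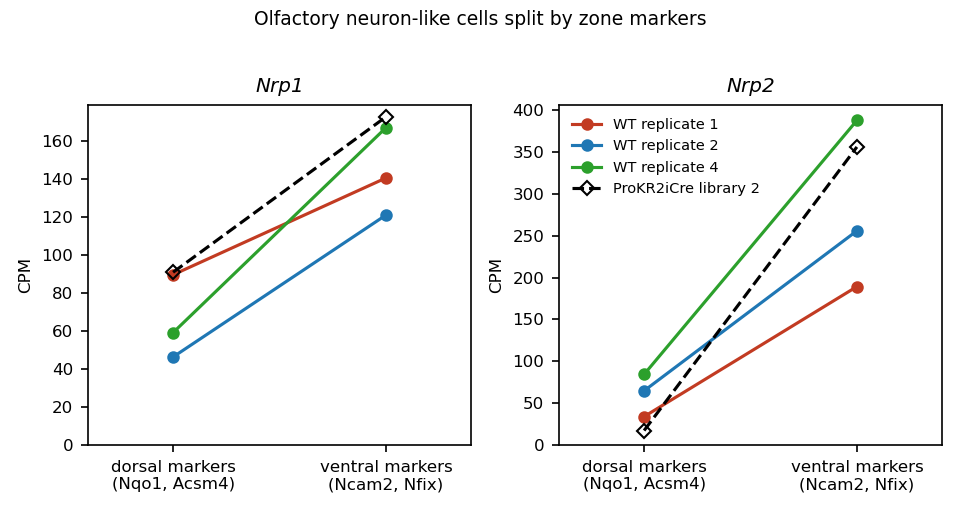
Levels of Nrp1 and Nrp2 (y axis, CPM) in olfactory neuron-like cells with dorsal or ventral zone markers (x axis); lines join the 2 sums of 1 library, solid for WT captures 1, 2 and 4 and dashed for ProKR2iCre library 2. All lines rise from dorsal to ventral, for Nrp2 from at most 84.4 to at least 189.2 CPM.

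Terminal nerve neurons, the group that includes GnRH neurons and the target of the Prokr2 Cre line, were sought with a gate of Gnrh1, Gal, Prph, Cntn2, Isl1 and Nhlh2. ProKR2iCre library 2 gave 45 cells. All of them also carried at least 3 of the 14 olfactory neuron markers (median 7, at most 12), 12 had an Omp UMI, 34 had Prokr2 and 10 had Gnrh1, so the gate holds cells of both kinds and its name is not fully borne out. The 12 WT capture 1 cells of the gate had no UMI of Gnrh1 or Prokr2. They go against the name, and their levels are not given. Their sum is 1 of the 55 class sums behind the correlations across classes.

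Set beside the 151 olfactory neuron-like cells of the same library, the 45 cells had less Plxna4, at 18.9 against 104 CPM (ratio 0.182, 95% interval 0.111 to 0.283). Their Nrp2 was at 161 against 256 CPM (0.629, 0.531 to 0.743) and their Plxna3 at 23.4 against 10.6 CPM (2.22, 1.25 to 3.9). Plxnd1 had 0 UMIs, which allows up to 2.70 CPM at 3 counts. Prokr2 itself was at 790 against 125 CPM. These are values of 1 library a side with no replicate, so there is no test.

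Nrp1 depended on how strictly the gate was drawn. It was at 240 against 157 CPM in the 45 cells (ratio 1.53, 1.30 to 1.78), at 210 CPM in the 26 cells with Gnrh1 or at least 2 Cntn2 UMIs (1.33, 1.10 to 1.61), and at 121 CPM in the 10 cells with Gnrh1 (0.768, 0.536 to 1.07), where its direction turned. The 2 narrower groups were chosen after the cells were seen. Nrp2 and Plxna4 kept their direction in both narrower groups. In the other 19 cells, with 1 Cntn2 UMI and no Gnrh1, Nrp2 was at 252 against 256 CPM (ratio 0.986, 0.793 to 1.21). Plxna4 was at 24.7 against 104 CPM there (0.238, 0.113 to 0.443). Nrp2 was at 109 CPM in the 26 cells and at 15.9 CPM in the 10 cells with Gnrh1 (ratio 0.0619, 0.0200 to 0.145), and Plxna4 at 15.6 and 9.52 CPM. Of the ligands, Sema3e was at 322 CPM in the 45 cells and 51.4 CPM in olfactory neuron-like cells, while Sema3a was at 48.6 and 150 CPM.

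**Figure D5:**
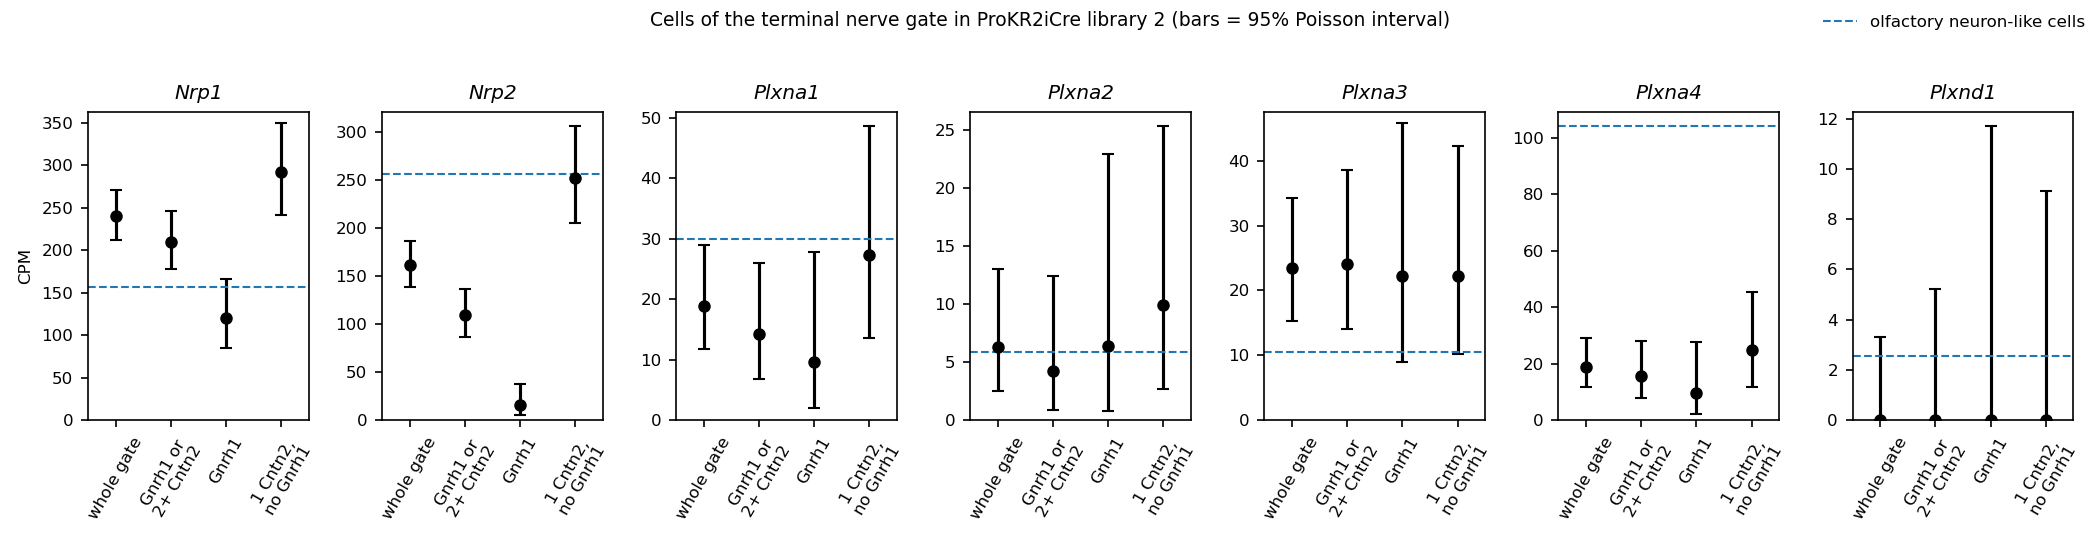
Level of each gene (y axis, CPM, bars are 95% Poisson intervals) in the 45 cells of the terminal nerve gate in ProKR2iCre library 2 and in 3 subsets of them (x axis), with the olfactory neuron-like cells of the library as a dashed line. Plxna4 lies under the line in the whole gate and in the cells with Gnrh1 (18.9 and 9.52 against 104 CPM), and Nrp1 lies above it in the whole gate and under it in the cells with Gnrh1.

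A receptor needs its subunits in the same cell, so cells with a UMI of each gene were counted after thinning every cell to 2000 UMIs. In endothelial-like cells 46.4% ± 9.59 had Plxnd1 (80.3% unthinned), 39.5% ± 15.7 had Nrp1, 29.1% ± 11.8 had Nrp2 and 14.9% ± 12.2 had both neuropilins (SD, n = 4). In pericyte-like cells the shares were 31.4% for Nrp1, 7.66% for Nrp2 and 1.94% for both. In immature olfactory neuron-like cells 10.7% ± 3.53 had Nrp1, 20.7% ± 5.18 had Nrp2 and 2.55% ± 1.08 had both, and without thinning the last share was 11.9%.

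For comparison, shares were read in erythroid-like cells, which should lack these receptors. Where the UMIs in those cells come from was not tested. Their 15 and 16 cells in captures 1 and 5, with median depths of 17442 and 13692 UMIs, gave 6.67% and 12.5% for Nrp1, 6.67% and 6.25% for Nrp2, 0% and 6.25% for both neuropilins, and 6.67% and 6.25% for Plxnd1, each resting on at most 2 cells. Median depths of immature olfactory neuron-like cells were 5530 to 10250 UMIs and of endothelial-like cells 7351 to 19492. The mean neuronal share of Nrp1 and the mean neuronal and pericyte shares with both neuropilins lie between the erythroid values, so nothing is read from these shares. The lowest endothelial share with both neuropilins, 2.46%, lies between the erythroid values as well. The summed level of Nrp1 in immature olfactory neuron-like cells was at least 64.5 CPM, against 12.4 and 51.0 CPM in erythroid-like cells. The endothelial shares of Nrp1, Nrp2 and Plxnd1 and the neuronal share of Nrp2 lie above both erythroid values in every capture at 2000 UMIs. Thinned to 1000 UMIs, the neuronal Nrp2 share in capture 5 was 2.86% (1 of 35 cells), under both erythroid values (6.67% and 6.25%). In simple epithelium-like cells 1.81% had Nrp1, 1.66% Nrp2 and 0.497% Plxnd1.

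Across the 55 class sums of the WT captures, the genes whose log2(CPM + 1) pattern was most like Plxnd1 were Apold1 (Pearson r = 0.84), Arap3 (0.83) and Acvrl1 (0.80). For Nrp1 they were Adam19 (0.80), Rap2a (0.74) and Vim (0.73), and for Nrp2 Camkk2, Arhgap31 and Mapre2, none above 0.68. Plxna4 was nearest to Mvb12b (0.74). Plxna1 was nearest to Ccdc112 (0.76), Plxna2 to Bcor (0.73) and Plxna3 to Cry1 (0.75). Within the family, Nrp1 and Plxnd1 had r = 0.714, Nrp1 and Nrp2 0.515, and Plxna1 and Plxnd1 -0.487. The sums of a capture share its library and depth, so these values describe the data and carry no p.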

How the data were processed

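Per the labels' protocols, 3′ libraries were made on the 10x Chromium platform. The authors deposited raw UMI counts per gene and cell barcode, counted with Cell Ranger 6.0.1 (WT replicate 1), 7.0.0 (the other WT libraries) or 6.1.2 (both ProKR2iCre libraries), per the file headers. The submitters' processing notes name mm10, Cell Ranger 4 and Seurat 4.3.0; whether intronic reads were counted is not given in the sources used here. Deposited totals were 16773781 to 89800259 UMIs per library, and all tests used the 30349 genes listed in every library.

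Gates used 127 fixed markers. A cell needed 3 markers of a class; where several classes qualified, the highest scaled score had to reach 1.5 times the next, otherwise the cell was left out. That scoring rule was set after counts were seen, and the genes, lists and comparisons were chosen with earlier results of these data known. Counts were summed per class and capture and tested with edgeR 4.0.16 (TMM, filterByExpr, quasi-likelihood, capture block) in R 4.3.3, with DESeq2 1.42.0 as an alternative. The same number marks the same capture, hence the block. Deviations of same-numbered class sums from their class means correlated at 0.0535 to 0.847. On simulated counts for the immature against progenitor comparison (8612 genes), 79 of 80 4-fold changes and 85 of 85 8-fold changes were recovered, with 6 false calls among 170. For endothelial against pericyte (6307 genes) all 77 4-fold changes were recovered, with 7 false calls among 170. The simulation gave all genes 1 common dispersion and no capture effect, and genes of the lowest levels were not changed in it. It therefore checks that the code runs as meant and does not give the power or error of the reported calls.

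Ratios within 1 library carry 95% exact conditional Poisson intervals and zeros a limit of 3 counts, which cover counting error only. Doublets were not removed in the main result, because Scrublet's automatic threshold marked at most 0.18% of a library's cells; removal by score at 0.8% per 1000 barcodes was an alternative. The genes named are the 7 receptors in every comparison and, of the pathway list, at most the 2 called genes with the largest rise and fall per sublist and comparison, of which a part is given. Analyses used Python 3.11.15, scipy 1.17.1 and scanpy 1.11.5. Alternatives were the fit without the block, DESeq2, RLE size factors, no low count filter, each capture left out, WT replicate 3 in place of 4, a stricter cell filter (1000 genes, 5% mitochondrial UMIs), 1 more marker per gate and doublet removal.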

Additional observations from a re-analysis of the deposited data

Results flagged for a closer look

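In 84 groups of 4 WT captures, 3 had 1 capture set apart from the other values by Dixon's 95% criterion, and chance flags about 1 group in 20. Nrp1 in immature olfactory neuron-like cells was low in WT replicate 2, at 64.52 CPM (44 UMIs) against 92.19 to 97.2 CPM in the other captures. Nrp2 in glia-like cells was high in WT replicate 4, at 66.52 CPM (27 UMIs) against 36.24 to 39.57 CPM. Nrp2 in mesenchyme-like cells was also high in WT replicate 4, at 174.4 CPM (4896 UMIs) against 118.7 to 127.9 CPM.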

How the results depend on the processing

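Of the 25 calls on the receptors, 13 held under every alternative run. Without the replicate block, which sets the pairing of classes by capture aside, fewer genes were called in every comparison. In the order of the report the counts were 1701, 3658, 949, 1725, 3188, 1085 and 727 of all genes, and the receptors called fell to 2 (immature neurons against progenitors), 2 (endothelial against pericyte), 3 (endothelial against mesenchyme), 2 (basal against simple) and 0 (bone against cartilage). With 1 more marker in each gate, 5 receptors were called for immature neurons against progenitors and 3 for basal against simple epithelium. Without the low count filter 1 was called for other against immature olfactory neurons, and the stricter cell filter gave 1088 genes there. The share of all genes called is not given for the added marker or the missing filter, so those receptor counts are not read against it. Leaving out 1 capture gave 863 to 1567 genes and 0 to 1 receptors for other against immature olfactory neurons. It gave 2 to 4 receptors for endothelial against pericyte (2262 to 2955 genes) and 3 to 6 for endothelial against mesenchyme (4337 to 5308 genes). For basal against simple it gave 2 to 4 (1717 to 2538 genes) and for bone against cartilage 1 to 3 (1364 to 2268 genes). The share of immature olfactory neuron-like cells with both neuropilins was 0.865% after thinning to 1000 UMIs and 11.9% unthinned, against 2.55%. The cause of these shifts was not tested.

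Of the tested differences, those whose direction turned under any alternative run had not been called. Plxna2 in immature neurons against progenitors was -0.35 with 1 more marker, -0.14 with doublets removed and -0.12 to 0.27 without 1 capture. Against glia, leaving out 1 capture gave -0.71 to 0.051 for Nrp1 and -0.34 to 0.78 for Plxna3. In other against immature olfactory neurons, Plxna2 was 0.12 without the replicate block, 0.23 in DESeq2, 0.14 with RLE size factors, 0.12 without the low count filter, 0.068 with WT replicate 3, 0.78 under the stricter cell filter and 0.082 with doublets removed, and -1.81 to 0.68 without 1 capture. There Nrp1 was -0.24 and Plxnd1 -0.55 under the stricter filter, and without 1 capture they ranged from -0.32 to 0.30 and from -0.28 to 0.96. Plxnd1 in basal against simple epithelium was -1.19 to 0.13 without 1 capture. Plxna2 in bone against cartilage was -0.0028 in DESeq2, -0.0067 under the stricter filter, -0.33 with 1 more marker and -0.14 to 0.26 without 1 capture. The ratio of Nrp1 in the terminal nerve gate was 1.01 with 1 more marker and turned to 0.768 in cells with Gnrh1. The zone differences stayed between -1.42 and -1.00 (Nrp1) and between -2.32 and -2.08 (Nrp2) without 1 capture. Mature against immature olfactory neurons gave no value, because 1 WT capture had enough cells. Plxna3 rests on 2372 UMIs in all kept cells, and other neuron-like sums on 11 to 18 cells.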

Other observations

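The 2 ProKR2iCre libraries were set beside the range of the WT captures, class by class, for levels whose counting interval did or did not reach that range. In library 1, 2 levels lay above the WT range, 5 lay below it and 70 overlapped it. Nrp1 in its olfactory progenitor-like cells was at 31.2 CPM (16 UMIs in 25 cells), above the WT range of 3.91 to 13.8 CPM, and Nrp1 in its immune-like cells was at 21.8 CPM, under the WT range of 69.6 to 138 CPM. In library 2, 9 levels lay above, 1 below and 53 overlapped. Its immature olfactory neuron-like cells had 140.7 CPM of Nrp1, against 64.5 to 97.2 CPM in WT, and 54.4 CPM of Plxna4, against 22 to 30.7 CPM. Its cartilage-like cells had 308 CPM of Nrp2, against 102 to 192 CPM, and its mesenchyme-like cells 230 CPM, against 119 to 174 CPM. Library 1 had 42.8 CPM of Nrp1 (8 UMIs) and 5.35 CPM of Plxna4 (1 UMI) in immature olfactory neuron-like cells, and 142.6 and 117.5 CPM of Nrp2 in cartilage-like and mesenchyme-like cells, all with intervals that reached the WT range. No test was made, and what sets library 2 apart from library 1 was not tested.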
